A study of Mus musculus with 12 samples.

Results

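The cytosolic ribosomal protein genes were followed across B cells that secreted or did not secrete IL-10, from mice with and without house dust mite (HDM) allergy. Members were the array's gene rows named Rpl or Rps with a number and an optional a, x or l, together with Rplp0, Rplp1, Rplp2 and Rpsa, without kinases or mitochondrial ribosomal proteins. The array held 80 such genes on 186 probes. Of these, 77 had a probe well above background on at least 3 of the 12 arrays and were tested among 24964 genes, 45 from the large subunit and 32 from the small subunit.

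The data were 4 groups of 3 one-colour microarrays each: IL-10+ cells of HDM mice, IL-10+ cells of control mice, IL-10- cells of HDM mice and IL-10- cells of control mice. All cells were B cells purified from the spleens of female Balb/c mice, cultured for 2 days with a CD40 agonist and given LPS, a bacterial Toll-like receptor ligand, for the last 5 hours. A secretion assay, which captures the cytokine on the surface of the cell that releases it, marked the cells for sorting into IL-10+ and IL-10-. Both agents were thus present in every group, and every sample's mRNA was amplified as cDNA by PCR before labelling. No label ties the 3 replicates to different animals or cultures. The p-values therefore reflect variation among replicates that could be only technical.

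The eukaryotic ribosome is built from a small subunit, which decodes the mRNA, and a large subunit, which joins amino acids. Its proteins are made in matched amounts, and B cells raise their synthesis when they are activated. In vertebrates many of these mRNAs begin with a 5′ terminal oligopyrimidine (TOP) tract, a C at the first base followed by a run of C and T, through which the mTOR kinase and the protein Larp1 control their translation. MYC is a known driver of their transcription.

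RefSeq start sequences (GRCm38.p6) were matched for 60 of the 80 members. Sequences were read on the strand that matches the mRNA. A C at an annotated start followed by at least 4 pyrimidines was found in 13 of the 60 (21.7%), against 3.01% of all 27025 genes with a start sequence. Within 10 bases of the start, the pattern was found in 63.3% of members and 34.4% of all genes. The 13 were Rpl14, Rpl15, Rpl28, Rpl35, Rpl35a, Rpl38, Rplp2, Rps6, Rps10, Rps15a, Rps18, Rps21 and Rps27. Below, 30 bases are shown from 10 before the annotated start onwards, with the TOP tract in capitals, for 6 members with a tract and for 3 members described below whose annotated start has none. A missing match says only that these letters are not at the annotated start.
Rps21 at chr2:180257369-180257398 on the plus strand: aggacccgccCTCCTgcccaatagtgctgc
Rps6 at chr4:86857348-86857377 on the minus strand: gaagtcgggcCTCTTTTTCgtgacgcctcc
Rplp2 at chr7:141447641-141447670 on the plus strand: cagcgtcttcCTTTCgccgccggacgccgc
Rpl38 at chr11:114668570-114668599 on the plus strand: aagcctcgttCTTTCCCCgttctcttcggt
Rps27 at chr3:90213629-90213658 on the minus strand: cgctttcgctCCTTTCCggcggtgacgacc
Rpl15 at chr14:18270967-18270996 on the minus strand: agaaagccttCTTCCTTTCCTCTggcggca
Rpl11 at chr4:136053374-136053403 on the minus strand: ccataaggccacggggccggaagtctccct
Rps3 at chr7:99483690-99483719 on the minus strand: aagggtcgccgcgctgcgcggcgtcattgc
Rps27l at chr9:66946076-66946105 on the plus strand: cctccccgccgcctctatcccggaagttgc

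Levels are given as the log2 signal minus the array's own 75th percentile, so that a level of 5 lies 5 doublings above that percentile. They are compared between arrays for 1 gene, not between genes. In these bulk samples, fewer cells of a type and less RNA per cell cannot be told apart. The sort was visible in the data: Il10 had levels of 6.42 to 6.97 on IL-10+ HDM arrays and 6.92 to 7.57 on IL-10+ control arrays, against -5.43 to -0.05 on IL-10- HDM arrays and -0.04 to 1.12 on IL-10- control arrays. All 10 B cell markers were tested, and 9 were well above background on all 12 arrays. The exception was Cd79a, a chain of the B cell receptor complex, which was above background on 11 arrays and at -5.87 on IL-10- HDM array 3.

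The array of IL-10- HDM replicate 3 was unlike the rest. Its mean correlation with the other arrays over all tested genes was 0.775, against 0.867 to 0.901 for the other 11. It had 47.7% of gene spots well above background, against 51.6% to 62.4% elsewhere. Of the 77 members, 71 had their highest level on it, as did 26.6% of all genes tested. Group medians, and the named fold changes that it moved by over 1.5 times, are therefore given with and without it. The slides were also uneven: slide 1 held all 6 IL-10+ arrays and IL-10- control arrays 1 and 2, and slide 2 held IL-10- control array 3 and the 3 IL-10- HDM arrays. Within HDM, IL-10 status and slide therefore cannot be told apart.

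As a group, ribosomal protein mRNAs had their highest mean level in IL-10- cells of HDM mice, but no single member passed the test in any comparison. The median over the 77 members was 5.62, 5.34 and 5.69 on the 3 IL-10+ HDM arrays and 5.12, 6.08 and 5.73 on the IL-10+ control arrays. It was 6.03, 6.0 and 6.88 on the IL-10- HDM arrays and 5.21, 6.26 and 5.38 on the IL-10- control arrays. The 3 IL-10+ HDM arrays lay below all 3 IL-10- HDM arrays, whereas the control groups overlapped. Group means were 5.55 ± 0.19 in IL-10+ HDM, 5.64 ± 0.48 in IL-10+ control, 6.30 ± 0.50 in IL-10- HDM and 5.62 ± 0.56 in IL-10- control cells (SD, n = 3 each). Without IL-10- HDM array 3 the mean of that group was 6.02 over 2 arrays, and both lay below IL-10- control array 2.

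**Figure D1:**
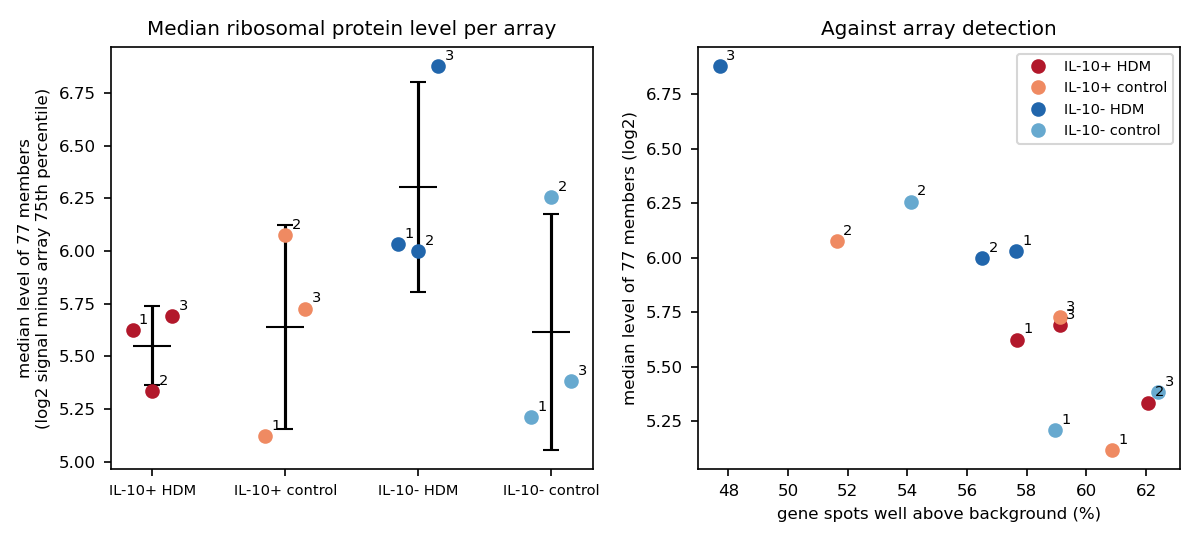
Left, median log2 level of the 77 tested members on each array by group, with numbered replicates, and the mean and SD of each group as bars. Right, the same medians against the percentage of gene spots well above background on the array. IL-10- HDM array 3 (6.88, 47.7%) has the highest median and the lowest detection.

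The member median moved with how many spots an array detected. Over the 12 arrays the correlation between the 2 was -0.90 (Pearson) and -0.83 (Spearman), given as a description, since both values come from the same arrays. It was -0.83 without the 2 arrays farthest from the median detection and -0.84 within the 8 arrays of slide 1. With the 75th percentile signal, which is subtracted to give the levels, the correlation over the 12 arrays was -0.0092 (Pearson) and 0.17 (Spearman). Pearson was 0.78 without the 2 arrays farthest from the median of that signal and 0.73 within slide 1. The part of detection or of this scaling value in the group differences was not tested.

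Members varied together. The correlation of a member with the median of the other members over the 12 arrays had a median of 0.92 and exceeded 0.8 for 65 of the 77. Over the 11 arrays without IL-10- HDM array 3 the median was 0.84, and 47 exceeded 0.8. The closest were Rpsa at 0.99, Rpl12 at 0.98 and Rps9 at 0.98. Below 0.5 were 6 members: Rps27l (0.50), Rpl7a (0.34), Rpl11 (0.34), Rplp2 (0.32), Rpl36 (0.11) and Rps3 (-0.40). Without that array Rps27l had 0.83 and Rps3 -0.69. All arrays share the scaling step, so these correlations are descriptions.

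**Figure D2:**
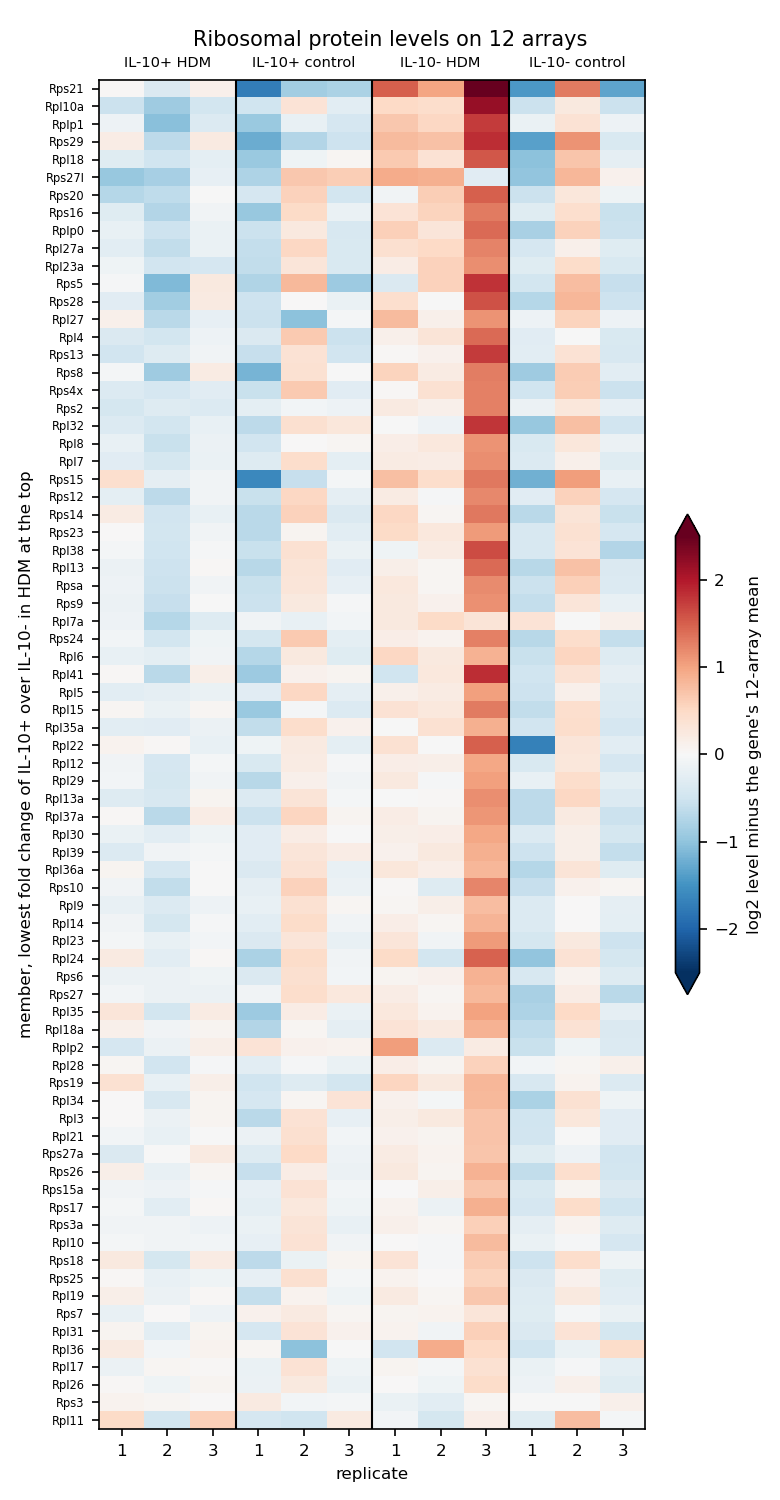
Log2 level of tested members minus each one's mean over the 12 arrays, with arrays in columns by group and replicate and members in rows. Rows run from Rps21 (log2 fold change -1.75 for IL-10+ over IL-10- in HDM) at the top to Rpl11 (0.32) at the bottom, and the column of IL-10- HDM array 3 is high for most members.

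In HDM mice, ribosomal protein levels were lower in IL-10+ than in IL-10- cells for 75 of the 77 members, with a median log2 fold change of -0.62, against 0.16 for all genes. With limma, 0 members passed a Benjamini-Hochberg adjusted p of 0.05 (were called), and 0.168% of all genes did. At an unadjusted p under 0.05 there were 13 members (of 77) and 13.3% of all genes. For 46 members all 3 IL-10+ arrays lay below all 3 IL-10- arrays, and for 0 they lay above, whereas 11.2% of all genes lay wholly below and 11.4% wholly above. Without IL-10- HDM array 3 the median was -0.32 and 73 members were lower. Then 47 members lay wholly below, against 16.2% of all genes, a count that cannot fall when an array is left out. With slide as a block, where the slide effect is set by the IL-10- control arrays, the median was -0.90.

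The subunits were similar, with a median of -0.62 for the 45 large-subunit members (44 lower) and -0.74 for the 32 small-subunit members (31 lower), or -0.31 and -0.39 without IL-10- HDM array 3. Rps21, a small-subunit protein with a TOP start, had the lowest fold change. Its levels were 2.89, 2.49 and 2.99 on IL-10+ HDM arrays and 4.36, 3.85 and 5.41 on IL-10- HDM arrays. The groups did not overlap, and the log2 fold change was -1.75 (SE 0.71, limma adjusted p = 0.344), or -1.32 without IL-10- HDM array 3.

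Rpl10a, the protein of the L1 stalk that guides the exiting tRNA, followed. Its levels were 3.72, 3.36 and 3.79 on IL-10+ HDM arrays and 4.75, 4.69 and 6.43 on IL-10- HDM arrays. The groups did not overlap, and the log2 fold change was -1.67 (SE 0.50, limma adjusted p = 0.247), or -1.09 without IL-10- HDM array 3. The sequence read by its probe (mm9 chr17:28467854-28467913, plus strand), the probe behind this value, is as follows.
Rpl10a probe: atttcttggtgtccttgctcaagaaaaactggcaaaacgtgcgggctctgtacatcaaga

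The 3 stalk proteins recruit translation factors to the large subunit, with Rplp0 as the base for Rplp1 and Rplp2. Rplp1 had levels of 2.24, 1.33 and 2.03 on IL-10+ HDM arrays and 3.04, 2.89 and 4.12 on IL-10- HDM arrays. Its log2 fold change of -1.48 (SE 0.42) had the smallest adjusted p of any member in this comparison, 0.231 by limma. Rplp0 had levels of 3.78, 3.45 and 3.79 on IL-10+ HDM arrays and 4.57, 4.27 and 5.38 on IL-10- HDM arrays, and its log2 fold change was -1.06 (SE 0.45). Rplp1 and Rplp0 were both lower on every IL-10+ HDM array than on any IL-10- HDM array. Rplp2 differed from them: its levels were 1.89, 2.18 and 2.47 on IL-10+ HDM arrays and 3.36, 1.97 and 2.52 on IL-10- HDM arrays, so the groups overlapped.

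Among the other low members, Rps29 (log2 fold change -1.21), Rpl18 (-1.2), Rps16 (-1.11) and Rpl27a (-1.06) also had no overlap between the groups. Rps29, a small-subunit protein, is uncertain, because the array's annotation places its probe on chr2:172335021-172335079 of mm9, whereas the RefSeq gene lies on chromosome 12. The probe reads as follows.
Rps29 probe: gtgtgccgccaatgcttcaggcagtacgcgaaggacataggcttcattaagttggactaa
The same holds for the probes used for Rpl37a, Rps4x, Rpl36 and Rps27, so that transcripts from near-identical copies may be included in these 5 values.

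Rps27l is a paralog of Rps27 and is known as a target of p53. Its levels were 0.84, 0.96 and 1.58 on IL-10+ HDM arrays and 2.71, 2.67 and 1.49 on IL-10- HDM arrays. Here IL-10- HDM array 3 was the lowest of its group, opposite to most members, and the log2 fold change was -1.16 (SE 0.58) with it and -1.56 without it. Rps27 itself had levels of 5.56, 5.47 and 5.49 on IL-10+ HDM arrays and 5.81, 5.68 and 6.44 on IL-10- HDM arrays. Its log2 fold change was -0.47 (SE 0.36), or -0.24 without array 3.

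Rps6, the target of the S6 kinases below mTOR, had levels of 6.96, 6.95 and 7.0 on IL-10+ HDM arrays and 7.18, 7.22 and 7.98 on IL-10- HDM arrays, with a log2 fold change of -0.49 (SE 0.34), or -0.23 without IL-10- HDM array 3. The groups did not overlap, and array 3 was the highest. Rpl5, which carries the 5S rRNA together with Rpl11, had 5.90, 5.94 and 6.01 on IL-10+ HDM arrays and 6.30, 6.37 and 7.19 on IL-10- HDM arrays, also without overlap, and its log2 fold change of -0.67 was -0.39 without array 3. Rpl22, a protein with a known part in lymphocyte development, had 3.15, 3.1 and 2.88 on IL-10+ HDM arrays and 3.44, 3.05 and 4.55 on IL-10- HDM arrays. These overlapped, and its log2 fold change of -0.64 was -0.20 without array 3.

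Further members of the panel had log2 fold changes between -0.91 and -0.32. Rps4x had -0.91, Rpl38, known from the mouse for its part in the translation of Hox mRNAs, -0.77, and Rpsa, also called the laminin receptor, -0.75. Rpl41 had -0.71, Rpl13a -0.62 and Rpl39, which lines the exit tunnel, -0.58. Rps19, whose human gene is mutated in Diamond-Blackfan anaemia, had -0.42. Rpl3, near the peptidyl transferase centre, had -0.39, Rps27a, made as a fusion with ubiquitin, -0.38 and Rpl10 -0.32. Adjusted p-values of these members, by limma, were 0.421 to 0.664. All 10 were closer to 0 without IL-10- HDM array 3. Then Rps4x had -0.56, Rpsa -0.40, Rpl39 -0.34, Rps19 -0.28, Rpl38 -0.24, Rpl13a -0.23, Rpl3 -0.22 and Rps27a -0.20, and Rpl41 and Rpl10 were both near 0, at -0.055.

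At the other end lay Rpl11 and Rps3, the only tested members with a positive log2 fold change under the 75th percentile scaling, both of which turned negative when arrays were scaled to their median. Rpl11 binds the 5S rRNA and Mdm2. Its levels were 4.68, 3.74 and 4.81 on IL-10+ HDM arrays and 4.14, 3.76 and 4.38 on IL-10- HDM arrays, so the groups overlapped, with a log2 fold change of 0.32 (SE 0.42). Rps3 sits at the mRNA entry of the small subunit. It had 3.99, 3.95 and 3.91 on IL-10+ HDM arrays and 3.72, 3.64 and 3.94 on IL-10- HDM arrays, with a log2 fold change of 0.18 (SE 0.26). Small negative values were those of Rpl26 (-0.13), Rpl17 (-0.15) and Rpl36 (-0.22), which were 0.041, -0.024 and -0.13 without IL-10- HDM array 3.

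**Figure D3:**
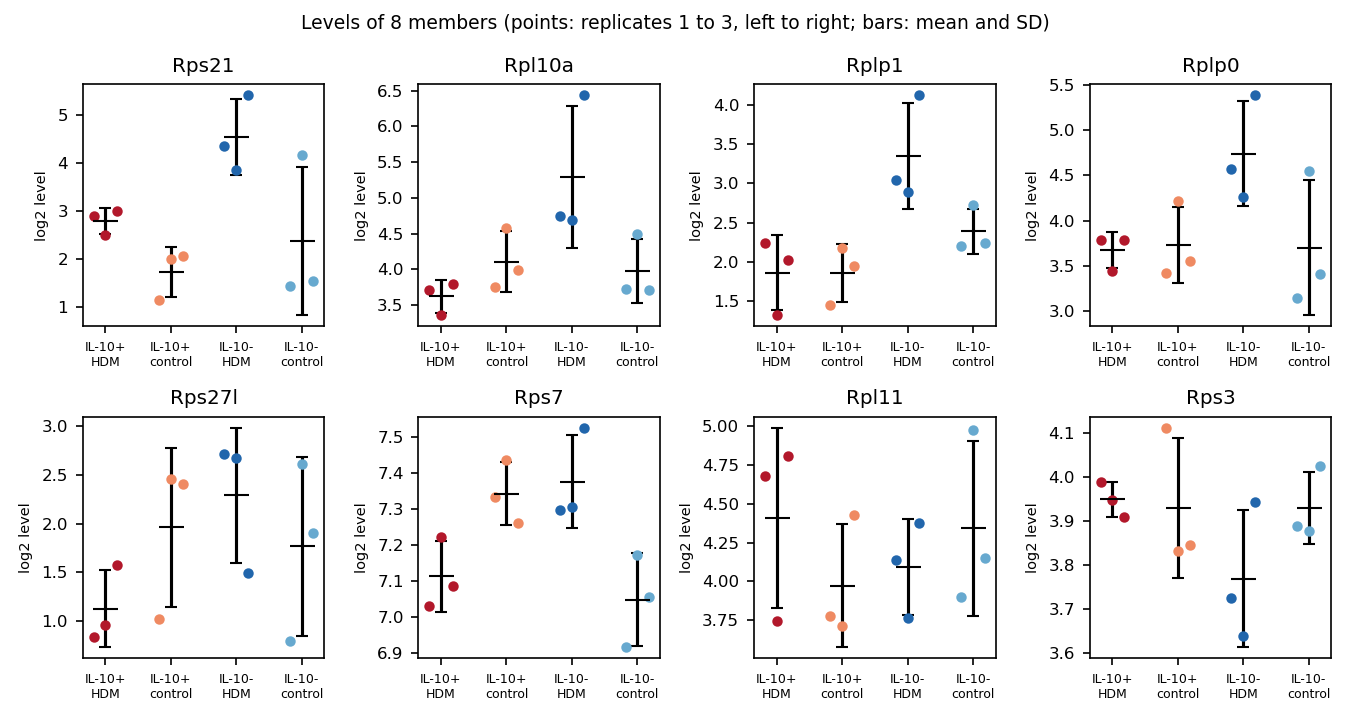
Log2 levels of 8 members on the 12 arrays, with points for replicates 1 to 3 from left to right and bars for the mean and SD of each group. Rps21, Rpl10a, Rplp1 and Rplp0 were lower on every IL-10+ HDM array than on any IL-10- HDM array, Rps27l was low on IL-10- HDM array 3, and Rpl11 and Rps3 overlapped.

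The values of Rpl11 and Rps3 depended on the probe. The used Rpl11 probe and its next brightest probe share a window of 37 bases that differs at 2 positions, C10T and G16A, counted from 1 at the 5′ end of the window, with the base of the used probe first. The window is shown for both because the fold changes took opposite signs, and capitals mark the differing bases.
Rpl11 used probe: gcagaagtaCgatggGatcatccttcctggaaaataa
Rpl11 second probe: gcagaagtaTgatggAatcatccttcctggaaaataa
The used probe gave a log2 fold change of 0.32 and the second gave -0.53 for IL-10+ over IL-10- in HDM. The remaining Rpl11 probe gave -0.74. For Rps3 the other 2 probes gave -0.79 and -0.05, against 0.18 for the one used.

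Over all members, 61 had at least 2 probes that passed the background filter, and in 14 of these the probes disagreed in direction in this comparison. The 103 probes that passed but were not used were lower in IL-10+ HDM cells in 91 cases, with a median of -0.70. Among the 14, some opposite values came from a probe that was dim on IL-10- HDM array 3. One Rpsa probe had 0.42, -3.08 and -6.23 on the 3 IL-10- HDM arrays, whereas the used Rpsa probe had 8.02, 7.81 and 8.94. One Rpl14 probe had 0.70, 1.07 and -6.16 there.

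**Figure D4:**
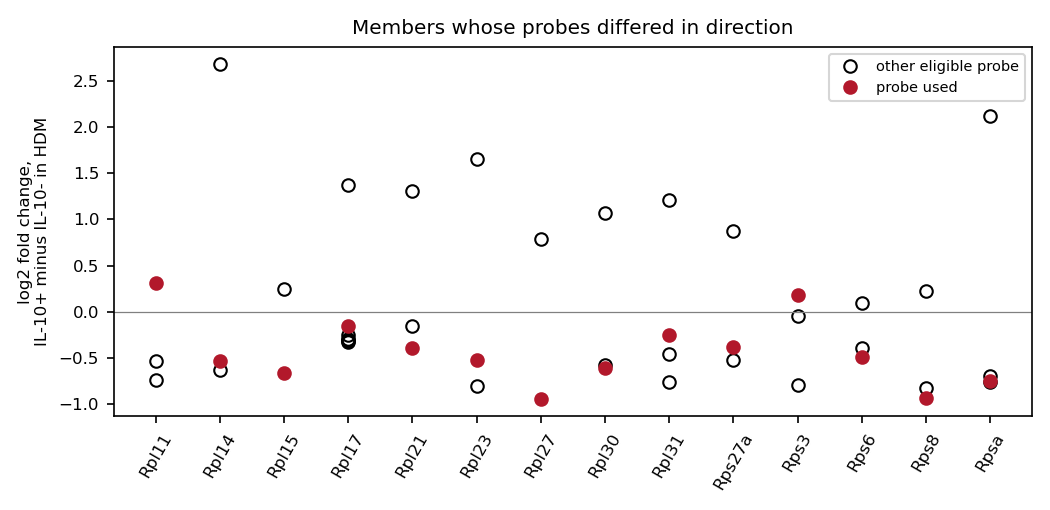
Log2 fold change of IL-10+ over IL-10- in HDM for each eligible probe of the 14 members whose probes differed in sign, with the used probe filled and the others open. The used probe is negative for 12 of the 14 and positive for Rpl11 (0.32) and Rps3 (0.18), whose other probes are negative.

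In control mice no common difference was seen. The median log2 fold change of IL-10+ over IL-10- was 0.08, against -0.04 for all genes, with 33 members lower and 44 higher. With limma 0 members were called, against 0.016% of all genes, and 0 had an unadjusted p under 0.05, against 4.06% of all genes. The median was -0.13 when IL-10- control array 1 was dropped and 0.31 when array 2 of that group was dropped, so its sign rested on single arrays. Dropping IL-10+ control array 2 gave -0.13, and dropping array 1 of that group gave 0.26. Within slide 1, which leaves out IL-10- control array 3, it was -0.0053.

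The lowest members there were Rpl27 (log2 fold change -0.65), Rps21 (-0.65), Rps15 (-0.64), Rps29 (-0.62), Rplp1 (-0.53) and Rpl11 (-0.37). The highest were Rps27 (0.64), Rplp2 (0.51), Rpl22 (0.50), Rpl39 (0.39), Rpl37a (0.35) and Rpl21 (0.32). The arrays did not overlap for 2 members higher in IL-10+ cells, Rplp2 and Rps7, while 4.75% of all genes were so. Rplp1 and Rpl7a were the 2 wholly lower, against 4.7% of all genes. Rplp1 had 1.45, 2.18 and 1.95 on IL-10+ control arrays and 2.21, 2.72 and 2.24 on IL-10- control arrays, and Rplp2 had 2.66, 2.42 and 2.40 and then 1.77, 2.22 and 1.97 in the same order. Rplp1 and Rplp2 lay on opposite sides, each with a small gap between the nearest arrays and without being called. Such separation was no more frequent among members than among all genes, so no difference of these 2 was shown.

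Averaged over HDM and control mice, 71 of 77 members were lower in IL-10+ cells, with a median of -0.26 against 0.04 for all genes. With limma 0 members and 0.268% of all genes were called, and 4 members (of 77) and 9.17% of all genes had an unadjusted p under 0.05. The lowest were Rps21 (-1.2 on the log2 scale), Rplp1 (-1.01), Rps29 (-0.91), Rpl27 (-0.80), Rpl10a (-0.77) and Rps15 (-0.72), and the 6 positive values, among them Rps3, Rps27, Rplp2, Rpl17 and Rps7, were at most 0.09. With IL-10- HDM array 3 left out, Rpl10a had -0.48 and Rps27 had 0.20. Only Rpl7a, a large-subunit protein, had all 6 IL-10+ arrays below all 6 IL-10- arrays, as 0.236% of all genes had, and 0 members lay wholly above, against 0.701% of all genes. Its levels were 4.27, 3.68 and 4.08 on IL-10+ HDM and 4.31, 4.20 and 4.32 on IL-10+ control arrays, against 4.65, 4.88 and 4.71 on IL-10- HDM and 4.74, 4.38 and 4.51 on IL-10- control arrays. The median over members was -0.14 without IL-10- HDM array 3. Dropping IL-10- control array 2 gave -0.13, and dropping IL-10+ control array 1 gave -0.16.

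Between HDM and control mice, IL-10+ cells showed little shift. The median log2 fold change was -0.07, against 0.07 for all genes, with 51 members lower and 26 higher. With limma 0 members and 0.00401% of all genes were called, and 0 members had an unadjusted p under 0.05, against 2.28% of all genes. Without IL-10+ control array 1 the median was -0.25 and without IL-10+ control array 2 it was 0.11. It was 0.023 without IL-10+ HDM array 2, and between -0.12 and -0.14 without each of the remaining 3. All 6 arrays were on slide 1.

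The lowest members were Rps27l (-0.83), Rpl10a (-0.48), Rps20 (-0.35), Rpl32 (-0.34), Rps27 (-0.33) and Rplp2 (-0.32). The highest were Rps21 (1.06), Rps15 (0.79), Rps29 (0.74), Rps19 (0.55), Rpl11 (0.44) and Rpl15 (0.42). Rps21 and Rps19 were higher on every HDM array than on any control array, and 5.86% of all genes were so. Rps19 had 3.6, 3.04 and 3.37 on IL-10+ HDM arrays and 2.71, 2.89 and 2.76 on IL-10+ control arrays. Rps7 and Rps2 were wholly lower, against 3.75% of all genes.

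In IL-10- cells, 75 of 77 members were higher in HDM than in control mice, with a median log2 fold change of 0.63 against -0.04 for all genes. This comparison shares the IL-10- HDM arrays with the IL-10 comparison in HDM mice, so the values of the 2 are not independent. With limma 0 members and 0.0481% of all genes were called, and 6 members had an unadjusted p under 0.05, as 9.13% of all genes had. For 12 members every HDM array lay above every control array, against 5.72% of all genes, and 0 lay wholly below, against 6.16%. Without IL-10- HDM array 3 the median was 0.34, and 13 members lay wholly above, against 10.2% of all genes. Without IL-10- control array 2 it was 0.90. Within slide 2, which held the 3 HDM arrays and 1 control array, and with slide as a block, it was 0.81.

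The 12 separated members were Rpl10a (log2 fold change 1.31), Rplp1 (0.96), Rpl27a (0.91), Rpl4 (0.84), Rps19 (0.75), Rpl5 (0.69), Rpl7 (0.68), Rps27a (0.63), Rpl21 (0.56), Rpl14 (0.54), Rpl9 (0.51) and Rps7 (0.33). When IL-10- HDM array 3 was left out, Rpl10a had 0.74, Rplp1 0.58, Rpl4 0.44, Rpl5 0.40, Rpl7 0.36, Rpl21 0.34, Rpl14 0.29 and Rpl9 0.29, while the other 4 moved less. Rpl10a had 4.75, 4.69 and 6.43 on IL-10- HDM arrays and 3.72, 4.49 and 3.72 on IL-10- control arrays. Rps21 had the highest fold change, 2.17 (SE 0.71, limma adjusted p = 0.449), with 4.36, 3.85 and 5.41 on IL-10- HDM arrays and 1.43, 4.17 and 1.54 on IL-10- control arrays. IL-10- control array 2 was close to the HDM arrays for Rps21, as it was for Rplp0, which had 4.57, 4.27 and 5.38 on IL-10- HDM arrays and 3.15, 4.55 and 3.42 on IL-10- control arrays.

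Rps29 (1.33), Rpl22 (1.16), Rpl18 (1.04) and Rplp0 (1.04) completed the 6 highest with Rps21 and Rpl10a. For Rpl22 the groups overlapped and each had 1 extreme array, with 3.44, 3.05 and 4.55 on IL-10- HDM arrays and 1.37, 3.37 and 2.80 on IL-10- control arrays. The lowest were Rpl11 (-0.25), Rps3 (-0.16), Rpl7a (0.20), Rpl26 (0.23), Rpl28 (0.24) and Rpl17 (0.28). When array 3 of IL-10- HDM was left out, Rpl22 had 0.73 and Rpl18 0.69, and Rpl11 had -0.39, Rps3 -0.25, Rpl26 0.061, Rpl28 0.083 and Rpl17 0.16. Of the 6 lowest, Rpl11 and Rps3 were positive when arrays were scaled to their median.

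**Figure D5:**
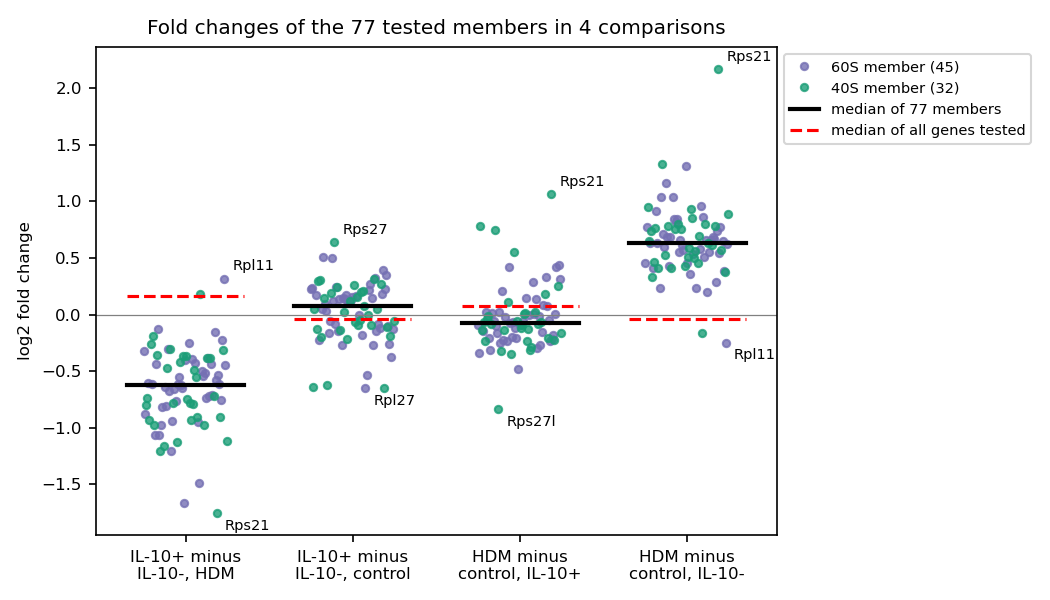
Log2 fold change of each of the 77 tested members in 4 comparisons, with large-subunit (60S) and small-subunit (40S) members in different colours, the median of the members as a solid line and the median of all genes as a dashed line. The member medians are -0.62, 0.08, -0.07 and 0.63 from left to right, and labels name the lowest and highest member of each.

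The IL-10 contrast in HDM mice minus that in control mice had a median of -0.72 over members, against 0.16 over all genes, with 74 of 77 members negative. With limma 0 members and 0.012% of all genes were called, and 1 member, Rpl10a at -1.80 (SE 0.70, adjusted p = 0.757), had an unadjusted p under 0.05, as 6.46% of all genes had. After it came Rps27l (-1.36), Rps20 (-1.15), Rpl22 (-1.14), Rpl27a (-1.11) and Rpl32 (-1.11), and the 3 positive values were those of Rpl11 (0.69), Rps3 (0.18) and Rpl36 (0.04), followed by Rps18 (-0.13), Rps15 (-0.16) and Rps19 (-0.21). Thus no member's IL-10 contrast was shown to differ between HDM and control mice. Without IL-10- HDM array 3 the median was -0.41. Then Rps27l had -1.76, Rpl10a -1.22, Rpl27a -0.85, Rps20 -0.74, Rpl22 -0.70 and Rpl32 -0.49, so the order changed as well. Rps18 (0.031) and Rps15 (0.083) turned positive, Rps19 had -0.06 and Rpl36 0.13.

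The 13 members with a TOP tract at an annotated start had a median of -0.49 for IL-10+ over IL-10- in HDM, against -0.69 for the 44 tested members with a start sequence and no tract there. For HDM over control in IL-10- cells the medians were 0.57 and 0.65 in the same order. With IL-10- HDM array 3 left out they were -0.24 and -0.35 in the first comparison and 0.31 and 0.34 in the second.

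Most genes of 4 related lists were also lower in IL-10+ than in IL-10- cells of HDM mice, against 43.1% of all genes. No gene of these 4 lists was called. Of 6 other ribosome-linked genes, 5 were lower in IL-10+ than in IL-10- cells, with a median of -1.32. Fau, which encodes a small-subunit protein fused to a ubiquitin-like domain, had 3.26, 3.1 and 3.47 on IL-10+ HDM arrays and 4.48, 4.75 and 6.05 on IL-10- HDM arrays. Its log2 fold change was -1.82 (SE 0.41, limma adjusted p = 0.145). Rpl22l1, the paralog of Rpl22, had -1.33 (SE 0.45) and Rpl36al -1.35 (SE 0.56). These 3 had -1.34, -0.86 and -0.85 without IL-10- HDM array 3.

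Among translation factors, 32 of 39 were lower in IL-10+ HDM than in IL-10- HDM cells, with a median of -0.51. The smallest p-values belonged to Eif3a (-0.93), Eif4g1 (-1.28) and Eif2s1 (-1.15), which encode subunits of initiation factors. Eif4g1 had -0.79 without IL-10- HDM array 3. Of 45 ribosome biogenesis genes, 40 were lower, with a median of -0.55. Nolc1, a nucleolar phosphoprotein, had -1.23 (SE 0.33, limma adjusted p = 0.209), and Ddx21, a nucleolar helicase, had -0.88. Polr1a, the largest subunit of RNA polymerase I, went the other way, with 0.72, 0.75 and 0.83 on IL-10+ HDM arrays and 0.66, -2.83 and -6.05 on IL-10- HDM arrays, so that its difference came from 2 arrays. Mitochondrial ribosomal proteins were more mixed, with 48 of 76 lower and a median of -0.32, and Mrpl15 (-2.38, limma adjusted p = 0.105), Mrps9 (-1.19) and Mrps6 (-1.21) had the smallest p. Without IL-10- HDM array 3 the medians of the 4 lists were -0.78 for ribosome-linked genes, -0.35 for translation factors, -0.37 for biogenesis and -0.58 for mitochondrial ribosomal proteins. For HDM over control in IL-10- cells, 52.1% of all genes were lower. In the lists, 5 of 6, 32 of 39, 38 of 45 and 45 of 76 were higher in the same order, with medians of 1.15, 0.31, 0.34 and 0.31. These medians were 0.66, 0.21, 0.12 and 0.44 without IL-10- HDM array 3.

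Of 24 measured regulators in the mTOR and MYC list, 11 were lower and 13 higher in the same comparison, with a median of 0.04, or -0.21 without IL-10- HDM array 3. After Max, the smallest p belonged to Sesn2 and Tsc1, which encode inhibitors of mTOR complex signalling, and both were higher in IL-10+ HDM cells without being called. Sesn2 had 0.56, 1.19 and 0.57 on IL-10+ HDM arrays and -0.13, -1.94 and -1.38 on IL-10- HDM arrays, with a log2 fold change of 1.92 (SE 0.52, limma adjusted p = 0.216). Tsc1 had 0.51, -3.57 and -1.86 on IL-10+ HDM arrays and -4.91, -5.84 and -3.02 on IL-10- HDM arrays, of which 1 was well above background, and the groups overlapped (limma adjusted p = 0.291). Myc, chosen after its values were seen, had -0.94 (SE 0.35, limma adjusted p = 0.322). Max, the DNA-binding partner of MYC, was the 1 called gene of the 5 lists. It had levels of -1.46, -2.32 and -2.74 on IL-10+ HDM arrays, -2.16, -2.09 and -1.69 on IL-10+ control arrays, and -2.67, -3.5 and -2.77 on IL-10- control arrays, and was not well above background on any of the 3 IL-10- HDM arrays. It was therefore at least 5.31-fold higher in IL-10+ HDM than in IL-10- HDM cells. In IL-10- cells it was at least 3.04-fold lower in HDM than in control mice. The p-values do not belong to these bounds but to the measured log2 fold changes, which include the dim signals. Those were 4.21 (limma adjusted p = 0.00925) and -3.40 (limma adjusted p = 0.0186). Without IL-10- HDM array 3 the second call was lost (limma adjusted p = 0.0605), whereas the first held (limma adjusted p = 0.0205). Each bound sets the mean of the measured group against the lowest signal well above background on the dim arrays.

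Markers of other cells were looked at beside these results as summed linear levels per array. For 8 of 10 T cell markers the sum was 4.94 to 6.98 in IL-10+ HDM, 3.53 to 6.70 in IL-10+ control, 3.65 to 6.47 in IL-10- HDM and 6.76 to 8.04 in IL-10- control cells. The 7 monocyte and macrophage markers on the array, dominated by Itgam (8.51 to 8.96 on the 12 arrays, log2), summed to 437 to 448 in IL-10+ HDM, 382 to 510 in IL-10+ control, 373 to 502 in IL-10- HDM and 380 to 423 in IL-10- control cells. Lyz2, a defining marker of these cells, was above background on 5 arrays only. B cell markers summed to 156 to 197 in IL-10+ HDM, 128 to 183 in IL-10+ control, 182 to 296 in IL-10- HDM and 111 to 183 in IL-10- control cells. The highest sum was mostly Cd74, which ranged from 4.96 to 7.61 (log2) and was highest on IL-10- HDM array 3. The markers did not move together, and Blk had 3.33, 3.67 and 2.74 on IL-10+ HDM arrays and 3.15, 2.19 and 1.64 on IL-10- HDM arrays. Of 7 neutrophil, 7 erythroid and 5 platelet markers, 4, 2 and 3 were tested, and of 7 NK and 6 dendritic cell markers, 3 and 4. Dendritic cell markers summed to 70.0 to 72.4 in IL-10+ HDM, 58.8 to 78.0 in IL-10+ control, 75.9 to 93.5 in IL-10- HDM and 59.6 to 86.7 in IL-10- control cells. This sum was dominated by Siglech (5.76 to 6.54 on the 12 arrays, log2). In HDM mice Xcr1 went the other way, with -2.20, -1.93 and -1.67 on IL-10+ arrays and -4.22, -4.03 and -4.12 on IL-10- arrays. Flt3 and Zbtb46 overlapped between these groups, and Itgax and Clec9a did not pass the background filter. The NK, neutrophil, erythroid and platelet sums were at most 4.05 on any array. S100a8, S100a9 and Mpo, which define neutrophils, Pf4 and Ppbp, which define platelets, and Hbb-b1 and Klf1, which mark erythroid cells, did not pass the background filter. Other markers of these lists did. The erythroid marker Hba-a1 was above background on 11 arrays, with 1.22 on IL-10- HDM array 3 and at most -1.95 elsewhere. Alas2, also erythroid, was above background on 10 arrays and had -6.13 on that array. Of the platelet markers, Itga2b was above background on 12 arrays, Gp1bb on 11 and Gp9 on 4. Of the neutrophil markers, Camp was so on 8, Elane on 5, and Ly6g and Ngp on 3 each. The part of other cells in the ribosomal protein differences was not tested.

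The 3 members without a tested probe were paralogs with narrow expression. Rpl3l, known from muscle, was above background on 1 array. Rpl39l and Rpl10l, known from testis, were above background on 0 arrays and on at most 2 arrays for any probe. All 77 tested members were above background on all 12 arrays.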

How the data were processed

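Per the labels, mRNA of sorted B cells was amplified by PCR as cDNA and labelled with Cy3. Per the file headers, 12 one-colour Agilent arrays (design 028005, mm9 annotation) were read with Feature Extraction 10.7.3.1, and the authors deposited the processed signal as an intensity, background-subtracted and not scaled between arrays, with the mean and local background intensity and with other values, the per-spot flags. The deposited value table holds a ratio, each processed signal over the array's median, as recomputation showed to within 0.00077%. Here each processed signal was turned to log2 and the 75th percentile of its array was subtracted. Spots marked as outliers were dropped. Probes well above background on at least 3 arrays were kept (37733), and 84 with only outlier spots on some array were left out. The probe with the highest mean stood for each gene, which left 24964 genes. No spot was saturated. Arrays give no counts, so their number limits the precision.

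Comparisons were fitted with limma 3.58.1 (R 4.3.3; lmFit, then eBayes, with 1 mean per group, 8 residual and 2.12 prior degrees of freedom), with Benjamini-Hochberg adjustment over all tested genes and a threshold of 0.05. The script was tested on simulated data. Group medians over members carry no test. Members and lists were chosen with earlier results of these data known. Named were called members, the 6 highest and 6 lowest per comparison, members whose arrays did not overlap, a fixed panel, and in each list the called genes and those with the smallest p. A withheld item is not reported here. Deviations of samples with the same replicate number correlated at -0.14 to 0.15 over 18 pairs. Samples with unlike numbers were not compared, so this cannot decide whether the numbers pair samples. The main fit used no pairing. Alternatives covered scaling, background correction, filters, probe choice, array weights, slide, the deposited ratio and each array left out.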

Additional observations from a re-analysis of the deposited data

Results flagged for a closer look

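Rps7, a small-subunit protein, moved in opposite directions in its 4 groups, with every array of 1 group on the same side of every array of the other. Its levels were 7.03, 7.22 and 7.09 on IL-10+ HDM arrays and 7.33, 7.44 and 7.26 on IL-10+ control arrays, and 7.30, 7.31 and 7.53 on IL-10- HDM arrays and 6.92, 7.17 and 7.06 on IL-10- control arrays. The IL-10 contrast was -0.26 in HDM and 0.30 in control mice, and the HDM contrast was -0.23 among IL-10+ cells and 0.33 among IL-10- cells. The test of the difference, the interaction term, gave -0.56 (SE 0.36, limma adjusted p = 0.766), so the difference was not called. No group had the 4 arrays needed to look for a single array far from its group.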

How the results depend on the processing

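No alternative gave a called member in any of the 6 comparisons. The direction of the member median held for IL-10+ over IL-10- in HDM and for HDM over control in IL-10- cells. Scaling to the median of each array, and the deposited ratio, which is the same scaling, moved it to -1.42 and 1.28, and the interaction to -1.66. They also moved the median of all genes, from 0.16 to -0.64 in the first comparison. Both scalings subtract 1 value per array from every gene. The members therefore necessarily lay equally far, 0.78, below the median of all genes under both. Under quantile normalization the members lay 0.30 below it. Slide as a block gave -0.90 for the first comparison. Each group held the same replicate numbers, so the replicate number as a block could not move the fold changes. With and without it the medians were -0.26, -0.62, 0.08, -0.07, 0.63 and -0.72. The order is averaged, HDM, control, HDM in IL-10+, HDM in IL-10- and interaction, and with the block 0 members were called. Leaving out 1 array at a time gave -0.36 to -0.13, -0.80 to -0.32, -0.13 to 0.31, -0.25 to 0.11, 0.34 to 0.90 and -0.94 to -0.41 in the same order. The fit within slide 2 and the fit without scaling were chosen after seeing the data. The share of members with a TOP start was 63.3% when any position within 10 bases counted.

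Of the named members' fold changes, 27 of 1117 alternative values changed sign, all of them of values that were not called, and the cause was not tested. Many of the 1117 could not change sign. Leaving out an array outside a comparison, or adding the replicate number as a block, leaves the fold change as it was. The deposited ratio repeats the median scaling. The count is therefore no measure of how robust the signs were. For IL-10+ over IL-10- in HDM, quantile normalization turned Rpl36 (0.19), Rpl17 (0.025) and Rpl26 (0.074), slide as a block turned Rpl36 (0.57), and array weights turned Rpl26 (0.0028). Median scaling and the deposited ratio turned Rps3 (-0.62) and Rpl11 (-0.48), and the mean over probes turned them to -0.22 and -0.32. Leaving out 1 array at a time gave -0.62 to 0.081 for Rpl36 (highest without IL-10- HDM array 2), and -0.25 to 0.041 for Rpl26 (highest without IL-10- HDM array 3). In control mice it gave -1.12 to 0.25 for Rps21 and -1.19 to 0.045 for Rps29 (highest without IL-10- control array 2), and -0.068 to 0.93 for Rpl22 (lowest without IL-10- control array 1), which was -0.072 as the mean over probes. For HDM over control in IL-10- cells, median scaling and the deposited ratio gave 0.40 for Rpl11 and 0.48 for Rps3, the mean over probes 0.061 and 0.15, and leaving out 1 array at a time -0.47 to 0.070 for Rpl11 (highest without IL-10- control array 2). Quantile normalization gave -0.18 for Rpl7a, -0.054 for Rpl26 and -0.069 for Rpl28.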
